A study of Mus musculus with 6 samples.

Results

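The genes described here are 10 members of the Bcl2 family, the proteins that decide whether the mitochondrial route of cell death is taken, in regulatory T cells (Treg cells) with and without a miR-27 transgene. They were chosen by name: Bcl2, Bcl2l1, Mcl1, Bcl2a1b, Bcl2l11, Pmaip1, Bbc3, Bid, Bax and Bak1. All 10 were found among the 24453 gene symbols of the deposited table, each represented by its transcript with the highest mean level, and all 10 passed the filter on low values. The control group (WT, whose genotype label reads WT Tg) and the miR-27 Tg group hold 3 libraries each, all from CD4+Foxp3+ cells sorted from healthy female C57BL/6 mice. The series text names the mice Foxp3cre het and describes overexpression of miR-27a in Treg cells, a name that denotes Cre driven by Foxp3. Foxp3 lies on the X chromosome, and in a heterozygous female only a part of the Treg cells uses the copy that carries Cre. The labels do not state whether the sort separated those cells, whether the controls carry Cre too, how old the mice were or whether libraries of a group stem from different mice. The p-values therefore reflect the spread among libraries only, and it may be technical.

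Proteins of the Bcl2 family meet on the outer membrane of the mitochondrion. Bax and Bak1 can open pores in it, the survival proteins Bcl2, Bcl2l1 (Bcl-xL), Mcl1 and Bcl2a1b (A1) hold them back, and the BH3-only proteins Bcl2l11 (Bim), Pmaip1 (Noxa), Bbc3 (Puma) and Bid release or trigger them. In Treg cells Mcl1 is known to be needed for survival, and Bim is known to limit their number. MicroRNAs lower the output of messenger RNAs through short matches, most often between the bases 2 to 8 of the microRNA (the seed) and the 3′ UTR.

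The mature sequences of miR-27a-3p, whose locus the transgene concerns, and of its relative miR-27b-3p are shown because their shared seed, in capitals, sets which members carry a match (RefSeq, GRCm38.p6, written 5′ to 3′).
miR-27a-3p: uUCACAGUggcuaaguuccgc
miR-27b-3p: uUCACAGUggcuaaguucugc
The seed pairs with ACTGTGA in a 3′ UTR. In the longest annotated 3′ UTR of each member (GENCODE M21, sense strand), 2 of 10 held this match, and both belong to BH3-only genes. In Bbc3 it begins at base 603 of a 3′ UTR of 971 bases and is followed by an A, which makes it the extended form of a seed match. The window below (chr7:16317827-16317849, GRCm38, plus strand) shows that match in capitals.
Bbc3 site: aggggtccagACTGTGAatcctg
In Pmaip1 the match begins at base 1698 of 2192 and is not followed by an A. Bcl2, Bcl2l1, Mcl1, Bcl2a1b, Bcl2l11, Bid, Bax and Bak1 held no such full match in 3′ UTRs of 5086, 1477, 2353, 147, 4218, 1427, 224 and 1121 bases. A shorter match that leaves out base 8 of the microRNA was also counted. It occurred 3 times each in Bcl2l1, Bcl2l11 and Pmaip1, 2 times each in Bcl2 and Bbc3, and 1 time each in Mcl1 and Bid. Bcl2a1b, Bax and Bak1 held 0. The other short match, which leaves out base 2, occurred 3 times in Bak1 and 2 times each in Bcl2 and Bcl2l11. It occurred 1 time each in Mcl1, Pmaip1, Bbc3 and Bax, and Bcl2l1, Bcl2a1b and Bid held 0. These counts include the full matches, and the share of all genes with either shorter match was not counted. Of 11817 tested genes with an annotated 3′ UTR, 16.7% held the full match. The share was 6.1% for 3′ UTRs under 1000 bases and 17.6% for those of 1000 to under 2000 bases. It was 28.7% for 2000 to under 4000 bases and 46.5% for 4000 bases or more. The match to the seed of the other arm, miR-27a-5p (TAAGCCC), was found in Bcl2 and Pmaip1 once each and in 5.9% of those genes. A match in these letters is a description and does not show that the site is used.

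The WT libraries held 37700000 to 42100000 counted reads, those of miR-27 Tg 34400000 to 38100000. These totals are summed over all annotated transcripts, and a read in an exon shared by transcripts counts for each. The number of separate reads is therefore lower. Mir27a, the hairpin of the transgene's microRNA, had 29.3 ± 7.88 RPKM in WT, against 8089 ± 754 in miR-27 Tg (SD, n = 3), so each library matched its label. These are reads over a hairpin entry of 86 bases and do not give the level of mature miR-27a-3p. RPKM is here the number of reads per kilobase of transcript and per 10000000 counted reads. The defining markers of the sort were present in every library: Foxp3 had 662 to 955 RPKM and Cd4 1864 to 2293. Of 7 Treg markers 0 passed by limma, with 0 higher and 2 lower at an unadjusted p under 0.05. Ctla4, an inhibitory receptor, had a log2 fold change of -0.56 (adjusted p = 0.0868) with no overlap between the groups, and Ikzf2, the transcription factor Helios, of -0.51 (adjusted p = 0.290). The summed RPKM of the 7 was lower in every miR-27 Tg library (8932 to 9434) than in any WT library (10005 to 10703). Ctla4 weighed heavily in this sum, with 3436 ± 324 RPKM in WT, against 2335 ± 234 in miR-27 Tg. Of the 7, 3 had a log2 fold change above 0 and 4 below. For Cd4 all miR-27 Tg libraries lay above all WT libraries (log2 fold change 0.18, adjusted p = 0.460 by limma). Markers of other cell types were present at widely differing levels. On the myeloid list Itgam had 3.94 to 17.1 RPKM and Ctss 1109 to 1697, and on the B cell list Cd74 had 473 to 2238. Of 15 tested myeloid markers 1 (Itgam) rose in miR-27 Tg, 10 were higher and 0 lower at an unadjusted p under 0.05, 5 had all miR-27 Tg libraries above all WT libraries, and the median log2 fold change was 1.16. Of 11 CD8 T and NK cell markers 2 (Xcl1 and Nkg7) fell, and 2 were higher and 4 lower at an unadjusted p under 0.05. Of 13 B cell markers 0 passed and 1 was higher at an unadjusted p under 0.05. In replicates 1, 2 and 3 the summed RPKM of all 14 on the list was 844, 1255 and 1984 in WT. It was 1185, 4284 and 2224 in miR-27 Tg. Of 5 erythroid markers 0 passed, with 0 at an unadjusted p under 0.05. The part of these markers in the results on the members was not tested. In bulk samples fewer cells of a type and less RNA per cell cannot be told apart.

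None of the 10 members passed the test between miR-27 Tg and WT. By limma, with p adjusted over the 13621 genes in the fit, 0 of 10 were past the threshold of 0.05, against 1.03% of all of them. At an unadjusted p under 0.05 there were 5: Bcl2 and Bcl2l11 with higher values in miR-27 Tg, and Bcl2a1b, Pmaip1 and Bid with lower values. The background at that level was 13.0% of all genes, 4.59% higher and 8.43% lower. The groups did not overlap for 4 members, namely Bcl2 on the higher side and Bcl2a1b, Pmaip1 and Bid on the lower side, against 18.5% of all genes (6.84% on the higher and 11.6% on the lower side). Because the members were chosen with earlier results of these data known, these counts carry no test. The median log2 fold change of the 10 was 0.125, beside -0.013 for all genes tested, with 6 values above 0 and 4 below. The log2 fold changes, on the scale of log2(RPKM + 1), ran from -0.70 for Pmaip1 to 0.44 for Bcl2l11.

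**Figure D1:**
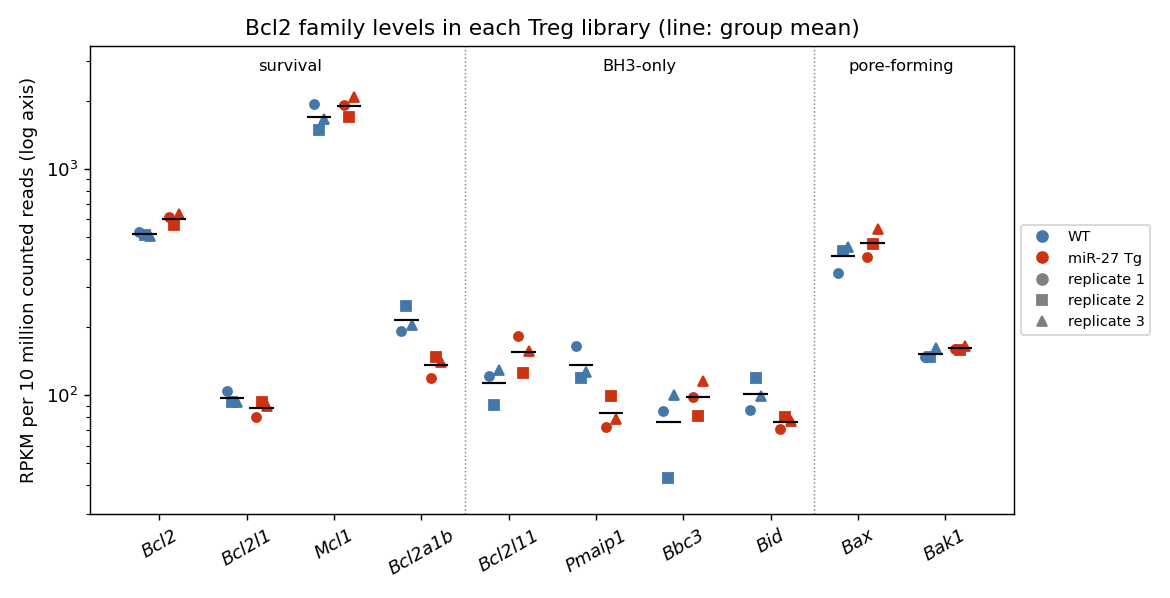
RPKM of the 10 members (log axis) in each of the 3 WT and 3 miR-27 Tg libraries, with marker shapes for the replicates, a line at each group mean and dotted lines between the survival, BH3-only and pore-forming members. Mcl1 is the highest in both groups, and the WT and miR-27 Tg points are apart for Bcl2, Bcl2a1b, Pmaip1 and Bid.

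Mcl1 stood above all other members in every library. RPKM is per length, so levels can be set side by side between genes, within limits. Bases shared with other genes or copies can alter a level, as given below for Bcl2a1b, Bid, Bax and Bak1. Of the exonic bases of Bcl2, 6.1% lie in D630008O14Rik on the opposite strand. In WT the order of mean RPKM was Mcl1, Bcl2, Bax, Bcl2a1b, Bak1, Pmaip1, Bcl2l11, Bid, Bcl2l1 and Bbc3. The ranges of neighbours did not overlap down to Bak1, while from Bak1 to Bbc3 each member overlapped the next. In miR-27 Tg the order was Mcl1, Bcl2, Bax, Bak1, Bcl2l11, Bcl2a1b, Bbc3, Bcl2l1, Pmaip1 and Bid. There Mcl1, Bcl2 and Bax were again apart from the member below them, and Bcl2a1b was apart from Bbc3, while the other neighbours overlapped. Among all tested genes Mcl1 ranked 116th by mean level, Bcl2 679th and Bax 976th, and Bbc3 ranked 5727th, still above 58.0% of tested genes.

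Among the survival genes, Bcl2 (NM_009741, mm10 chromosome 1, 106538176 to 106714290, minus strand), whose protein gives the family its name, had 528, 513 and 507 RPKM in WT, against 614, 565 and 630.5 in miR-27 Tg, given here and below in the order of replicates 1, 2 and 3. All miR-27 Tg libraries lay above all WT libraries, by a small margin. The mean was 516 ± 10.9 in WT, against 603 ± 34.2 in miR-27 Tg (SD, n = 3), a log2 fold change of 0.22 (SE 0.08, adjusted p = 0.292 by limma). The difference did not pass, and its 95% interval was 0.03 to 0.41. A second annotated transcript, NM_177410, which holds 2123 bases at the start of the gene, had 462 ± 26.1 and 550.2 ± 56.8 RPKM, a ratio of 1.19 beside 1.17 for the long one. Reads in the shared exon were counted for both.

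Bcl2a1b (NM_007534, chromosome 9, 89199273 to 89207838, plus strand), the A1 gene that NF-kB and T cell receptor signals are known to induce, had the lowest p of the 10. It had 192, 249 and 204 RPKM in WT, against 120, 147 and 141 in miR-27 Tg, from 583 to 744 reads in WT, against 346 to 385 in miR-27 Tg. Every WT library was above every miR-27 Tg library. The means were 215 ± 30.1 and 136 ± 14.4 RPKM, a ratio of 0.632 and a log2 fold change of -0.65 (SE 0.13, 95% interval -0.95 to -0.36, adjusted p = 0.0657 by limma). This p crossed the threshold when RPKM were first scaled by their upper quartile (adjusted p = 0.0445) or libraries were weighted (adjusted p = 0.0495). It was 0.104 with no filter on low values, 0.113 without the intensity trend of limma, and 0.106 to 0.168 without 1 library.

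Reads of Bcl2a1b are uncertain because the mouse genome holds near-identical copies. Its annotated transcript is 99.1% identical to that of Bcl2a1d and 98.2% to that of Bcl2a1a over 817 aligned bases, and 57.6% and 41.1% of its stretches of 50 bases also occur in those copies. The treatment of reads with several positions is not stated in the labels or file headers. The predicted gene Gm29094, on the same strand, also shares 49.1% of its exonic bases. Bcl2a1d had 23.1, 29.8 and 19.4 RPKM in WT, against 10.9, 10.6 and 16.1 in miR-27 Tg (log2 fold change -0.89, adjusted p = 0.124), again with no overlap. Bcl2a1a had 0.332 to 2.2 RPKM, from 1 to 6 reads, and Bcl2a1c 0.658 to 3.61, from 1 to 6 reads. With Bcl2a1a, Bcl2a1b and Bcl2a1d summed, the libraries had 216, 279 and 224 RPKM in WT, against 131, 159 and 159 in miR-27 Tg (log2 fold change -0.67, adjusted p = 0.0623), a step chosen after seeing the data. A1 is also known from myeloid cells. The summed RPKM of 16 myeloid markers was 1988, 2419 and 2587 in WT, against 1920, 3716.5 and 3124 in miR-27 Tg. Of these markers 13 of 15 tested were above 0 in log2 fold change. Ctss, the largest term of this sum in every library, had a log2 fold change of -0.12. No marker of that list was at 0 in every library, and their part in the result was not tested.

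Mcl1 (NM_008562, chromosome 3, 95658721 to 95663178, plus strand), a short-lived survival protein, had 1939, 1485 and 1660.1 RPKM in WT, against 1919, 1704 and 2091 in miR-27 Tg. WT replicate 1 lay among the miR-27 Tg libraries, so the groups overlapped. Its log2 fold change was 0.17 (SE 0.13, 95% interval -0.12 to 0.47, adjusted p = 0.651). Bcl2l1 (NM_009743, chromosome 2, 152780664 to 152831728, minus strand), which encodes Bcl-xL, had 104, 93.3 and 93.3 RPKM in WT, against 79.9, 93.6 and 89.5 in miR-27 Tg. The groups overlapped through miR-27 Tg replicate 2 alone, and the log2 fold change was -0.15 (SE 0.10, 95% interval -0.39 to 0.10, adjusted p = 0.636). Its other 3 annotated transcripts had mean ratios of miR-27 Tg to WT between 0.898 and 0.908, beside 0.904 for the one used.

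Among the BH3-only genes, Pmaip1 (NM_021451, chromosome 18, 66458604 to 66465558, plus strand) encodes Noxa, which binds Mcl1 and A1 and is known as a target of p53. It had 165, 119 and 127 RPKM in WT, against 72.5, 99.1 and 78.9 in miR-27 Tg, with every WT library above every miR-27 Tg library. The means were 137 ± 24.5 and 83.5 ± 13.9, a ratio of 0.611 and the largest difference among the members in size, a log2 fold change of -0.70 (SE 0.16, 95% interval -1.07 to -0.33, adjusted p = 0.103 by limma). Without 1 library its log2 fold change was -0.83 to -0.56 and its adjusted p 0.0934 to 0.275. Pmaip1 is 1 of the 2 members with a full miR-27 seed match (bases 2 to 8).

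Bbc3 (NM_133234, chromosome 7, 16309583 to 16318334, plus strand), the gene of Puma and the other member with a full seed match, had 85.6, 43.2 and 100.5 RPKM in WT, against 97.8, 80.9 and 116 in miR-27 Tg. WT replicate 2 was far below the other 5 libraries, which overlapped. The log2 fold change was 0.43 (SE 0.29, 95% interval -0.25 to 1.10, adjusted p = 0.623), and it ran from 0.07 to 0.67 without 1 library, the lowest without WT replicate 2. Of the 2 members with a full match, 1 thus had lower and 1 higher mean values in miR-27 Tg, and neither passed the test.

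Bcl2l11 (NM_207680, chromosome 2, 128126038 to 128162547, plus strand) encodes Bim, the BH3-only protein that removes lymphocytes when cytokine support ends. It had 122, 90.2 and 129 RPKM in WT, against 183, 125 and 157 in miR-27 Tg. The groups overlapped only through miR-27 Tg replicate 2, which lay between WT replicates 1 and 3. The means were 114 ± 20.6 and 155 ± 28.9, a log2 fold change of 0.44 (SE 0.18, 95% interval 0.04 to 0.85, adjusted p = 0.336). The table holds 5 transcripts of Bcl2l11. The 3 that span the whole gene had mean ratios of miR-27 Tg to WT of 1.36, 1.37 and 1.36, and the 2 that end at 128131498 had 1.25 and 1.21, with lower levels (80.3 and 68.7 RPKM in WT). Since these transcripts share exons, the ratios are not independent and their difference was not tested.

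Bid (NM_007544, chromosome 6, 120893119 to 120916820, minus strand), which caspase-8 cleaves to link death receptors to mitochondria, had 85.9, 119 and 99.1 RPKM in WT, against 71.0, 80.0 and 76.6 in miR-27 Tg. The groups did not overlap, and the lowest WT library was close to the highest miR-27 Tg library. The means were 101 ± 16.5 and 75.9 ± 4.57, a log2 fold change of -0.40 (SE 0.13, 95% interval -0.71 to -0.09, adjusted p = 0.241). The gene Bcl2l13 on the opposite strand shares 17.7% of the exonic bases of Bid, and its own level was 69.4 ± 0.464 and 73.0 ± 0.565 RPKM.

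The pore-forming genes overlapped between the groups. Bax (NM_007527, chromosome 7, 45461695 to 45466898, minus strand) had 349, 434 and 452 RPKM in WT, against 407, 467 and 541 in miR-27 Tg (log2 fold change 0.20, SE 0.14, 95% interval -0.12 to 0.51, adjusted p = 0.629). Bak1 (NM_007523, chromosome 17, 27019812 to 27028626, minus strand) had 148, 148 and 162 RPKM in WT, against 160.5, 159 and 164 in miR-27 Tg (log2 fold change 0.08, SE 0.08, 95% interval -0.12 to 0.27, adjusted p = 0.777). Of the exonic bases of Bax 12.2% lie in Gm45808 too, and of those of Bak1 25.5% in Ggnbp1 on the opposite strand. Reads were counted on both strands.

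**Figure D2:**
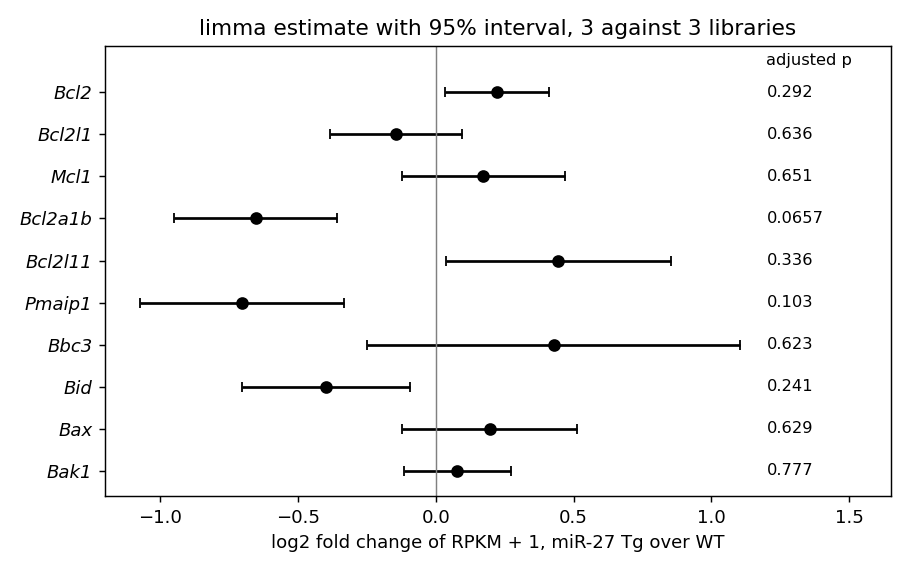
Log2 fold change of RPKM + 1 for each member (points, miR-27 Tg over WT) with its 95% interval from limma, and the adjusted p at the right. The intervals of Bcl2, Bcl2a1b, Bcl2l11, Pmaip1 and Bid leave out 0, and the smallest adjusted p is 0.0657.

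The balance between the 2 sides was described without a test. The log2 ratio of the summed RPKM of the 4 survival genes to that of the other 6 was 1.53, 1.30 and 1.21 in WT, against 1.46, 1.31 and 1.38 in miR-27 Tg. The miR-27 Tg libraries lay inside the WT range, and the means differed by 0.04 beside SDs of 0.17 and 0.08. Mcl1, the largest term, weighs most in this sum. The log2 ratio of Bcl2 to Bcl2l11, the pair in which Bcl2 holds Bim, was 2.11, 2.51 and 1.98 in WT, against 1.75, 2.17 and 2.01 in miR-27 Tg. Only miR-27 Tg replicate 1 lay outside the WT range, and the means differed by -0.22 beside SDs of 0.28 and 0.22.

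**Figure D3:**
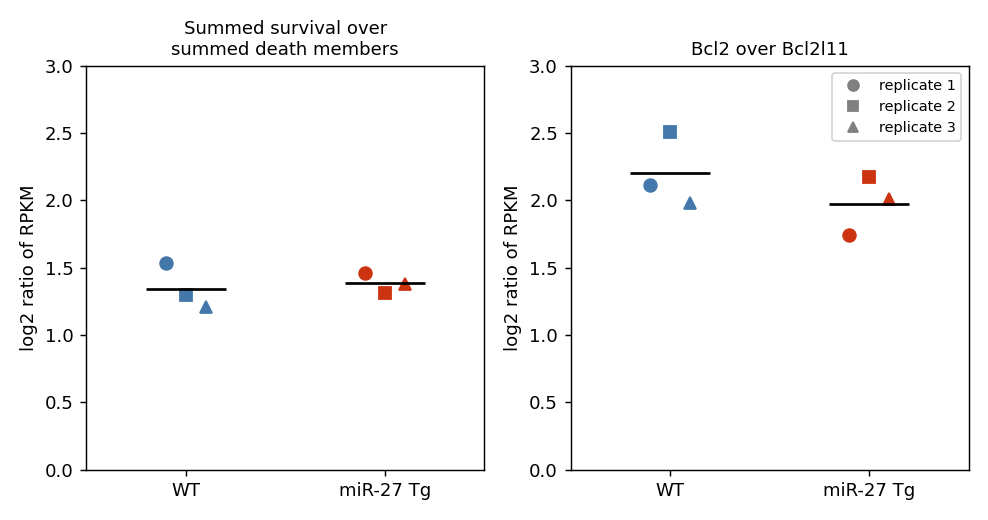
Log2 ratio of RPKM in each library for the summed survival over the summed death members (left) and for Bcl2 over Bcl2l11 (right), with marker shapes for the replicates and a line at each group mean. The groups overlap in both panels.

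The other genes of the pathway also gave no call. Of 16 other Bcl2 family genes 13 were tested and 0 passed by limma, with 0 higher and 3 lower at an unadjusted p under 0.05. The median log2 fold change was 0.005. The lowest p belonged to Bcl2a1d, described above, and to Bcl2l15, which had 8.32, 12.4 and 9.56 RPKM in WT, against 2.80, 4.57 and 5.89 in miR-27 Tg (log2 fold change -1.06, adjusted p = 0.132). The BH3-only genes Bmf and Bad had 8.36 ± 2.07 and 7.90 ± 5.35 RPKM (adjusted p = 0.888), and 65.7 ± 9.35 and 71.0 ± 6.99 (0.800). Hrk was listed at 0 in every library, and Bok and Bcl2l10 at 0.374 RPKM or less.

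Of 13 genes of caspases and the apoptosome, the machinery that acts after the mitochondrion, 0 passed, 10 had a log2 fold change below 0, and 1 was lower at an unadjusted p under 0.05. Of all 13621 genes tested, 7208 had a log2 fold change below 0. The median of the list was -0.14, beside -0.013 for all genes. Dffb, the nuclease that cuts DNA in dying cells, had 66.3, 75.2 and 73.8 RPKM in WT, against 47.3, 52.98 and 52.3 in miR-27 Tg with no overlap (log2 fold change -0.49, adjusted p = 0.0920). Of 6 genes of the inhibitor of apoptosis (IAP) family 0 passed, with 1 at an unadjusted p under 0.05. That gene was Naip5, known best as a sensor of bacterial flagellin, with 49.3, 73.2 and 43.4 RPKM in WT, against 16.9, 28.3 and 14.8 in miR-27 Tg (log2 fold change -1.44, adjusted p = 0.0591). Near copies in the Naip cluster may share its reads, which was not examined. Birc6 had 394 ± 25.4 and 439 ± 44.3 RPKM (adjusted p = 0.616).

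Among 12 death receptor genes 0 passed, with 1 higher and 2 lower at an unadjusted p under 0.05 and a median of -0.05. Fasl, the ligand of the death receptor Fas, had 30.3, 31.5 and 27.8 RPKM in WT, against 23.4, 17.4 and 15.4 in miR-27 Tg with no overlap (log2 fold change -0.66, adjusted p = 0.144), and Tnfsf10, the ligand TRAIL, had 108 ± 21.2 and 81.6 ± 9.84 (adjusted p = 0.353). Fas itself had 231 ± 31.1 and 206 ± 27.3 RPKM (adjusted p = 0.671). Of 13 tested genes of the p53 axis, which is known to induce Pmaip1, Bbc3 and Bax, 0 passed, with 1 higher and 2 lower at an unadjusted p under 0.05 and a median of -0.05. Phlda3 had 6.06 ± 1.31 and 12.4 ± 3.11 RPKM (log2 fold change 0.91, adjusted p = 0.139) and Perp 2.49 ± 0.739 and 0.630 ± 0.294 (-1.09, adjusted p = 0.141). Trp53 had 419 ± 40.8 and 457 ± 49.3 RPKM (adjusted p = 0.717), and Cdkn1a 15.4 ± 7.74 and 22.7 ± 7.18 (adjusted p = 0.606).

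Of 15 genes that are known to control members, by transcription, turnover or binding, 0 passed and 0 had an unadjusted p under 0.05, with a median of 0.06. In this list 12 had a log2 fold change above 0 and 3 below, against 6413 and 7208 of all genes tested. Foxo1 and Foxo3, transcription factors that induce Bcl2l11, had 444 ± 86.7 and 469.7 ± 89.9 RPKM (adjusted p = 0.917) and 102 ± 26.5 and 116 ± 21.7 (0.764). Dynll1, a dynein light chain that binds Bim, had 152 ± 31.0 and 209 ± 60.1 RPKM (adjusted p = 0.520).

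**Figure D4:**
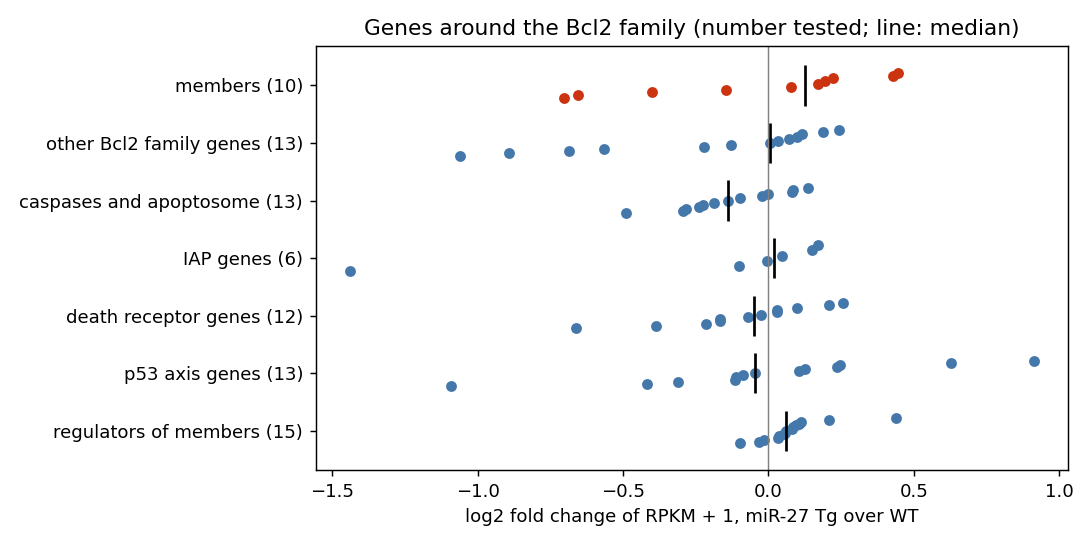
Log2 fold change of RPKM + 1 (miR-27 Tg over WT) of each tested gene in the members and in 6 lists of related genes, with the number tested in brackets and a line at each median. Medians lie between -0.14 for caspases and apoptosome and 0.125 for the members, and Naip5 has the lowest value, -1.44.

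Likeness across the 6 libraries was measured by the root mean square difference of centred log2(RPKM + 1) profiles. The genes most like Bcl2 and Pmaip1 were sought among 10344 others with a mean of at least 10 RPKM and a transcript of at least 200 bases. This is a description over 6 libraries. For Bcl2 they were Zkscan3, Prkcq (a kinase of T cell receptor signalling) and Bambi-ps1, with differences of 0.03, 0.03 and 0.03 beside a median of 0.20. Prkcq had 912, 931 and 923 RPKM in WT, against 1089, 1032 and 1133 in miR-27 Tg. Since these genes were picked for their likeness to a member, a shared order of groups follows from the choice. For Pmaip1 they were Chst2, Mapre3 and Npas4, with differences of 0.07, 0.10 and 0.11 beside a median of 0.43. Chst2 had 22.8, 15.9 and 18.6 RPKM in WT, against 10.4, 12.7 and 10.2 in miR-27 Tg.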

How the data were processed

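RNA-seq was made from 6 libraries of sorted Treg cells, 3 WT and 3 miR-27 Tg. Per the submitters' processing notes the tools were STAR version 2.2.0c and HOMER, on mm10 (GRCm38). The deposited RPKM values are HOMER counts in exons of RefSeq transcripts on both strands, scaled to 10000000 counted reads per library, per the file headers. Reads in exons shared by transcripts count for each of them, and overlapping genes are not separated by strand. Low values were whole multiples of the value of 1 read (100% within 0.1 of a read), which gave the totals of counted reads and the read numbers.

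For each symbol the deposited transcript of highest mean RPKM was used, and genes with a mean of at least 1 RPKM entered a fit of log2(RPKM + 1) by limma 3.58.1 under R 4.3.3 (intensity trend, two-sided, Benjamini-Hochberg over 13621 genes, no replicate block). The pseudocount understates changes of low genes. The script was tested on simulated data. The members and lists were chosen with earlier results of these data known. Named are all members and, in each other pathway list, the genes past the threshold or else the 2 with the lowest p. Bcl2a1a, Bcl2a1c, Bcl2a1d, Bmf, Bad, Fas, Fasl, Trp53, Cdkn1a, Foxo1 and Foxo3 are named too. Of the marker lists, genes past the threshold, defining markers and the 2 Treg markers with the lowest p are named. Ctss and Cd74 are named there for their levels. Not every gene that this rule picks is reported here. Bcl2l13, Prkcq and Chst2 are given beside members. Alternatives were other pseudocounts, filters, scaling, weights, transcripts, a replicate block and each library left out.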

Additional observations from a re-analysis of the deposited data

How the results depend on the processing

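All 10 members kept the sign of their log2 fold change in each of their 151 alternative values, and 3 of these, all of Bcl2a1b, moved past the threshold. The count of members past the threshold went from 0 to 1 with upper-quartile scaling (adjusted p = 0.0445), with array weights (adjusted p = 0.0495) and with a replicate block (adjusted p = 0.0270). It stayed at 0 without any 1 library, where the members at an unadjusted p under 0.05 numbered 2 to 5 (2 without miR-27 Tg replicate 1), and these numbered 3 without the intensity trend and 7 with the replicate block. Over all genes 51 were higher and 89 lower, against 15 and 33 with no filter, 81 and 144 with array weights, 91 and 185 with the replicate block, and 3 to 21 and 2 to 46 without 1 library. Equal replicate numbers share only a number in the labels. The correlations of same-numbered deviations were 0.37, 0.10 and 0.04, and not every library correlated best with its own number. The difference in the summed balance was -0.0296 to 0.13 without 1 library (-0.0296 without WT replicate 3), and that of Bcl2 to Bcl2l11 was -0.34 to -0.07. Without 1 library the log2 fold changes of Mcl1, Bax, Bcl2l1, Bcl2l11, Bid and Bbc3 were 0.08 to 0.27, 0.08 to 0.30, -0.19 to -0.08, 0.29 to 0.59, -0.51 to -0.28 and 0.07 to 0.67, none past the threshold. With 3 libraries a group, the 95% intervals of the members were 0.38 to 1.35 wide on the log2 scale.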
